A study of Mus musculus with 16 samples.

Results

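The mouse mitochondrial genome carries 37 genes, and each of them had its own count in 16 liver RNA libraries of db/db mice. These transcripts were the lines of the deposited count table whose symbol starts with mt-, which gave 37 of 40409 distinct lines: 13 protein-coding genes, 2 ribosomal RNA (rRNA) genes and 22 transfer RNA (tRNA) genes. They matched all 37 genes on the mitochondrial chromosome in the GENCODE M21 annotation. 8 libraries came from livers of mice injected with an adeno-associated virus of serotype AAV8 encoding arcA, called arcA below, and 8 from littermates injected with AAV8 encoding enhanced green fluorescent protein, called GFP below. All mice were db/db, a leptin receptor mutant line that develops obesity, diabetes and fatty liver, so every group carried that mutation. Vectors were given at about 5 weeks of age and livers were taken at 10 weeks of age, 5 weeks after injection. The labels name neither the product of arcA nor the promoter, the vector dose or the sex of the mice, and a group with no virus was not analysed here. Each group therefore stands for 8 libraries of bulk liver, and the transgenes themselves were not analysed here.

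Mitochondrial DNA is transcribed from both strands as long precursors that run through most of the circle. Cutting out the tRNAs that lie between the other genes frees the messenger RNAs (mRNAs) and the rRNAs. The mRNAs encode core subunits of respiratory chain complexes I, III and IV and of the ATP synthase (complex V), the rRNAs build the mitochondrial ribosome, and the remaining subunits and all factors that copy, process and translate these RNAs are encoded in the nucleus. Hepatocytes are rich in mitochondria, and most of their mitochondrial mRNAs carry short poly(A) tails, which allows selection by oligo-dT, the step named in the labels.

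Library totals ranged between 28912563 and 53520828 counts, and the libraries looked like liver: the 13 hepatocyte markers found in the table summed to between 86427 and 111906 CPM (counts scaled to a common library size, adjusted by TMM factors) in arcA livers and between 83545 and 95848 CPM in GFP livers. Libraries differed in the noncoding gene Gm42418, which is known to overlap nuclear rRNA sequence. It took between 2.45% and 7.37% of the counts in arcA livers and between 2.29% and 19.4% in GFP livers, with GFP replicates 2, 3 and 5 at 11.8%, 18.1% and 19.4%. Results that rest on these 3 libraries are given with and without them.

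All 37 mitochondrial genes together took 6.27% ± 0.448 of the counts in arcA livers and 6.69% ± 0.921 in GFP livers (SD, n = 8 each). The 13 mRNAs held nearly all of this, at 5.93% ± 0.434 in arcA livers and 6.10% ± 1.0 in GFP livers. Protein-coding shares ran between 5.25% and 6.37% around a median of 6.10% in arcA livers, and between 4.77% and 7.84% around a median of 6.05% in GFP livers, so the arcA range lay inside the GFP range. The rRNAs took 0.337% ± 0.0703 in arcA livers, with a lowest value of 0.267%, a median of 0.330% and a highest of 0.489%. In GFP livers they took 0.586% ± 0.206, with a lowest value of 0.313%, a median of 0.561% and a highest of 0.868%. The log2 ratio of mean shares, arcA over GFP, was -0.04 for the mRNAs, -0.80 for the rRNAs and 0.30 for the tRNAs, and these sums were described without a test. The same ratios without GFP replicates 2, 3 and 5 were -0.16 for the mRNAs, -0.45 for the rRNAs and 0.38 for the tRNAs, and without GFP replicate 1 that of the mRNAs was 0.018. tRNA counts were a trace, at 0.00630% ± 0.00102 of all counts in arcA livers and 0.00512% ± 0.00138 in GFP livers. Over all libraries 93.5% of them came from mt-Tp, so the tRNA ratio is mostly that of this gene. In bulk liver, fewer cells of a type and less RNA per cell cannot be told apart.

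Of the 37 genes, 19 had enough counts to be tested, and 3 changed in arcA livers, all of them lower: mt-Nd1, mt-Rnr2 and mt-Tn (edgeR's quasi-likelihood test, Benjamini-Hochberg adjusted p under 0.05 over 14476 genes). That is 15.8% of those tested, beside 10.8% of all tested genes called in either direction, 4.27% called higher and 6.57% called lower. By class, 1 of 13 mRNAs, 1 of 2 rRNAs and 1 of 4 tested tRNAs passed. The median log2 fold change, arcA over GFP, was 0.01 over the 13 mRNAs, -0.82 over the rRNAs and -0.63 over the 4 tested tRNAs, against 0.01 over all tested genes.

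**Figure D1:**
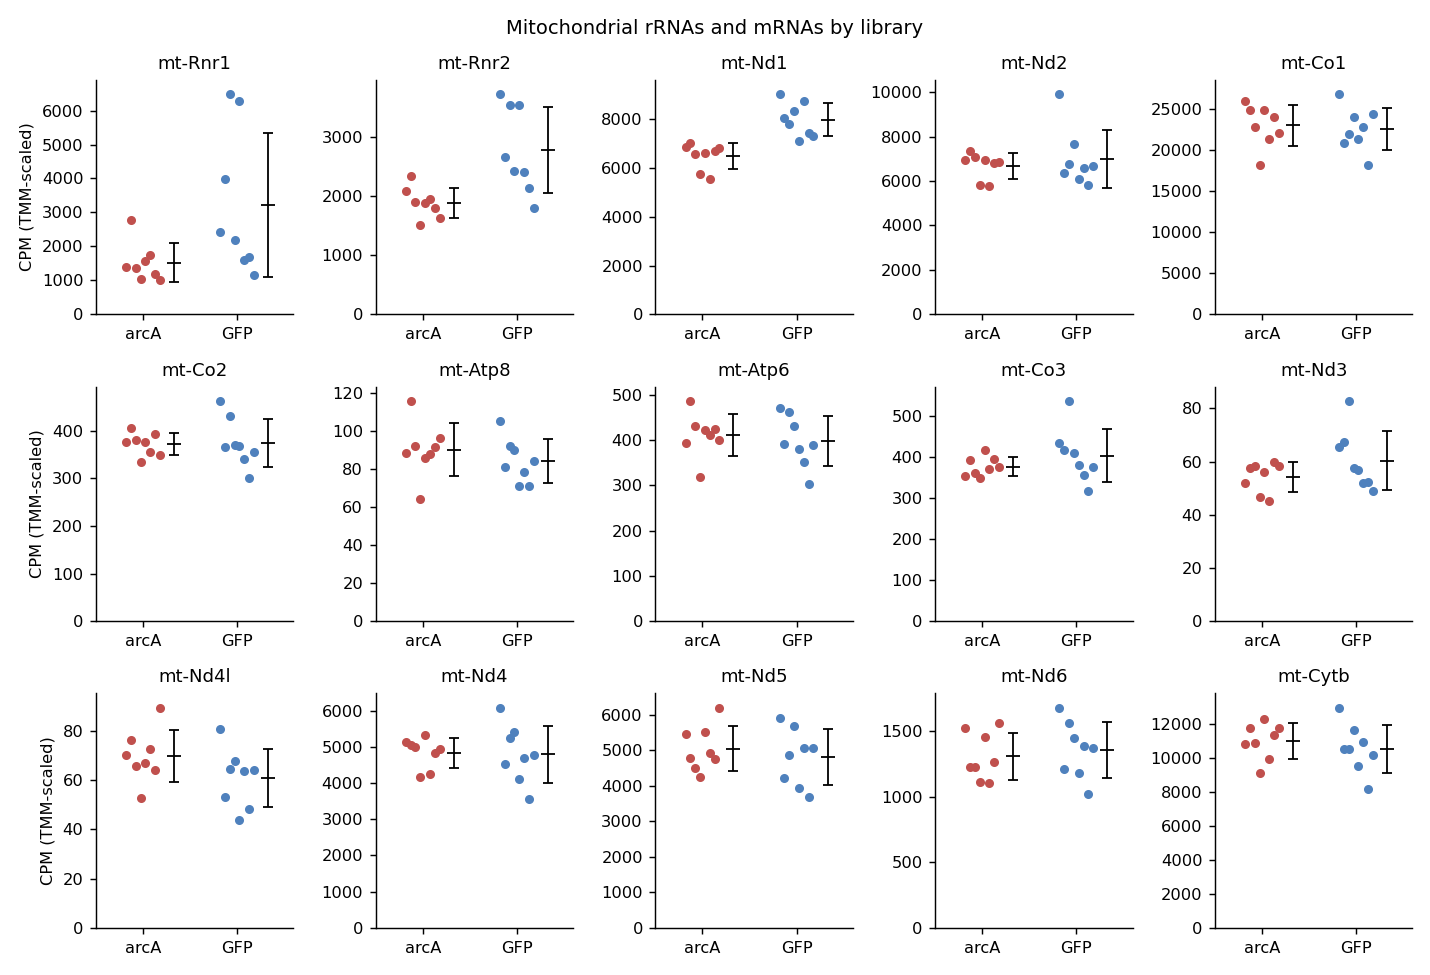
Library-scaled CPM (linear y axes that start at 0) for the 13 mitochondrial mRNAs and 2 rRNAs, 1 point per library, with arcA livers on the left of each panel and GFP livers on the right, and mean and SD beside the points (n = 8 each). For mt-Nd1 every arcA library lies below every GFP library, while the groups overlap for every other gene shown.

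The mitochondrial ribosome is built on mt-Rnr2 and mt-Rnr1. How far oligo-dT libraries measure the pool of these rRNAs was not tested. mt-Rnr2, the rRNA of the large subunit (chrM:1094-2675, plus strand), had lower CPM in arcA livers. Its lowest, median and highest values were 1509, 1893 and 2347 CPM in arcA livers, against 1808, 2547 and 3728 CPM in GFP livers. All 8 arcA livers lay below the GFP median, but the groups overlapped, mainly through GFP replicates 7 and 8 at the low end of their group. The log2 fold change was -0.56 (SE 0.138, adjusted p = 0.0129, edgeR). Without GFP replicates 2, 3 and 5 it was -0.41 (adjusted p = 0.0913), so the call was lost.

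mt-Rnr1, the rRNA of the small subunit (chrM:70-1024, plus strand), had the widest spread of the mitochondrial genes with high counts. Its lowest, median and highest values were 1012, 1381 and 2792 CPM in arcA livers, against 1146, 2307 and 6477 CPM in GFP livers. The 3 highest values were those of GFP replicates 2, 3 and 5, the same libraries that held the most Gm42418, and arcA replicate 2 was the highest arcA liver in both measures. The log2 fold change was -1.09 (SE 0.372, adjusted p = 0.0765, edgeR) with 7 of 8 arcA livers below the GFP median, and it missed the threshold. It was called with DESeq2 (adjusted p = 0.0369) and by edgeR when scaled on hepatocyte markers (adjusted p = 0.0215). It was also called without arcA replicate 2 (adjusted p = 0.0476) and without GFP replicate 8 (adjusted p = 0.0406). Without GFP replicates 2, 3 and 5 it was -0.26 (adjusted p = 0.598).

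Within the rRNA counts, mt-Rnr1 made up 38.2% to 54.3% in arcA livers and 38.8% to 64.6% in GFP livers. GFP replicates 2, 3 and 5 held 59.8%, 64.6% and 63.9%, above every other library. The ratio of mt-Rnr2 to mt-Rnr1 counts, which does not depend on library scaling, was 1.33 ± 0.260 in arcA livers and 1.10 ± 0.444 in GFP livers (SD, n = 8 each; two-sided exact permutation test, p = 0.169, 0.338 after adjustment over 6 ratios). The log2 difference was 0.37 with all libraries and -0.090 without GFP replicates 2, 3 and 5, so its direction turned. A list of 6 RNAs used as quality marks, Gm42418 and Lars2 among them, had 0 calls by edgeR over the 5 tested. All 5 had an unadjusted p under 0.05, as did 3608 of all 14476 genes, their median log2 fold change was -1.11, and DESeq2 called 4 of them and limma voom 2, all lower. A fit without Gm42418 and Lars2 was among the 32 alternatives run for each rRNA, with 573 genes called higher and 972 lower over all genes. mt-Rnr2 was called in 31 of the 32, all but that without GFP replicates 2, 3 and 5. mt-Rnr1 was called in 4, named above, and the fit without Gm42418 and Lars2 was not among them. The part of these RNAs in the rRNA values was not tested further.

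**Figure D2:**
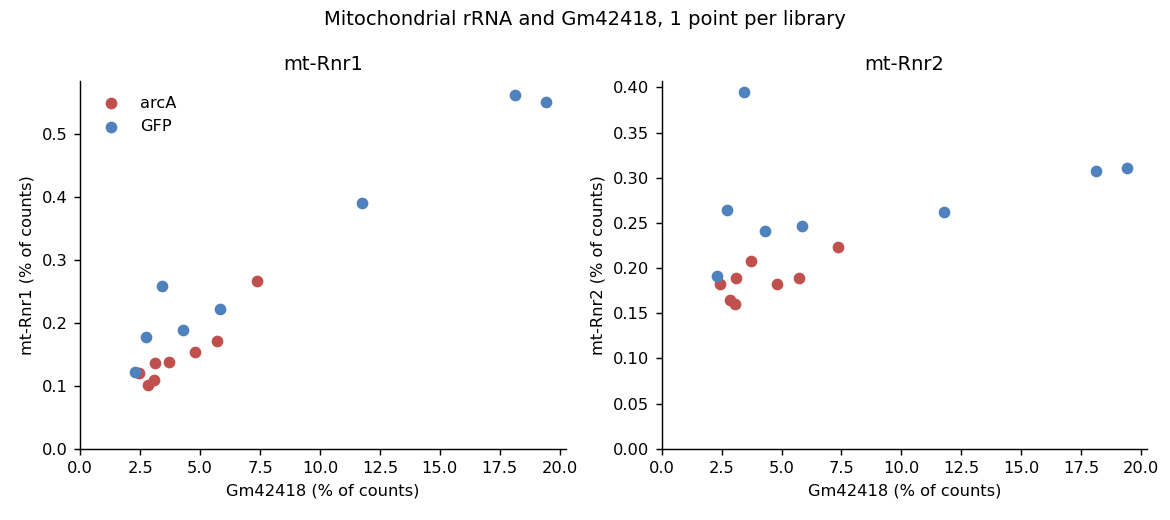
Percent of each library's counts in mt-Rnr1 and in mt-Rnr2 (y axes) against its percent in Gm42418 (x axis), 1 point per library, arcA in red and GFP in blue. GFP replicates 2, 3 and 5, at 11.8%, 18.1% and 19.4% of counts in Gm42418, hold the 3 highest mt-Rnr1 shares.

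Complex I, the NADH dehydrogenase that feeds electrons into the respiratory chain, takes 7 subunits from the mitochondrial genome, and mt-Nd1 was the single mRNA among the 13 that passed the test. mt-Nd1 encodes a membrane subunit next to the ubiquinone site and lies just downstream of the rRNAs (chrM:2751-3707, plus strand). Its lowest, median and highest values were 5538, 6646 and 7032 CPM in arcA livers, against 7101, 7934 and 9012 CPM in GFP livers. The groups did not overlap, which held for 1 of the 19 tested mitochondrial genes and for 1.76% of all tested genes in either direction, 1.2% with arcA below GFP. The log2 fold change was -0.30 (SE 0.0731, adjusted p = 0.0116, edgeR), a fold of 0.813.

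mt-Nd1 passed the threshold under all 32 alternatives computed for it, with log2 fold changes between -0.49 and -0.27. Without GFP replicates 2, 3 and 5 it was -0.34 (adjusted p = 0.0233). Scaled on the summed mitochondrial mRNAs instead of on all genes, it was -0.29 (adjusted p = 0.0401). As a share of the 13 mRNAs' counts, mt-Nd1 made up 10.9% ± 0.470 in arcA livers and 13.3% ± 1.11 in GFP livers, with no overlap between the highest arcA share of 11.6% and the lowest GFP share of 12%.

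mt-Nd2, the neighbouring complex I subunit gene (chrM:3914-4951, plus strand), did not pass the test. Its lowest, median and highest values were 5755, 6900 and 7355 CPM in arcA livers, against 5821, 6622 and 9901 CPM in GFP livers, with GFP replicate 1 alone at the top (log2 fold change -0.06, SE 0.0979, adjusted p = 0.762, edgeR). The ratio of mt-Nd1 to mt-Nd2 counts was chosen after these values were seen and has no test. It lay between 0.928 and 0.990 in arcA livers, around a median of 0.973. In GFP livers it was 0.910 in replicate 1 and between 1.08 and 1.33 in the other libraries, around a median of 1.16.

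The other complex I mRNAs showed smaller differences, none of which passed. mt-Nd3 averaged 54.2 ± 5.67 CPM in arcA livers and 60.4 ± 11.1 CPM in GFP livers (log2 fold change -0.15, SE 0.0954, adjusted p = 0.345, edgeR). mt-Nd4l averaged 69.6 ± 10.5 CPM in arcA livers and 60.7 ± 11.8 CPM in GFP livers (0.20, SE 0.117, adjusted p = 0.318), the highest fold change of the 13 mRNAs. mt-Nd4, which shares a precursor and 7 bases with mt-Nd4l, averaged 4837 ± 411 CPM in arcA livers and 4795 ± 784 CPM in GFP livers (0.01, SE 0.0943, adjusted p = 0.955). The groups overlapped for each of these genes. mt-Nd5 averaged 5040 ± 636 CPM in arcA livers and 4803 ± 797 CPM in GFP livers (0.07, SE 0.102, adjusted p = 0.742).

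mt-Nd6 is the only protein-coding gene on the minus strand (chrM:13552-14070), and its end overlaps the end of mt-Nd5 on the other strand. It averaged 1310 ± 179 CPM in arcA livers and 1357 ± 213 CPM in GFP livers (log2 fold change -0.05, SE 0.10, adjusted p = 0.819, edgeR). The ratio of mt-Nd6 to mt-Nd5 counts compares these neighbours of opposite strands within a library. It was 0.260 ± 0.0164 in arcA livers and 0.283 ± 0.0199 in GFP livers (SD, n = 8 each; log2 difference -0.12). All 8 arcA livers lay below the GFP median, but the groups overlapped, and the difference missed the threshold after adjustment over 6 ratios (two-sided exact permutation test, p = 0.0169, adjusted p = 0.0508). Leaving out arcA replicate 1, arcA replicate 3 or GFP replicate 4 brought it past the threshold, with 0.00932 as the lowest adjusted p. The sources used here do not say whether the counting used strand. If it did not, reads from the stretch where these genes overlap cannot be assigned to either of them. If the counting ignored strand, reads of the opposite precursor within either gene could be counted too. Whether oligo-dT captured both mRNAs alike was not tested.

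**Figure D3:**
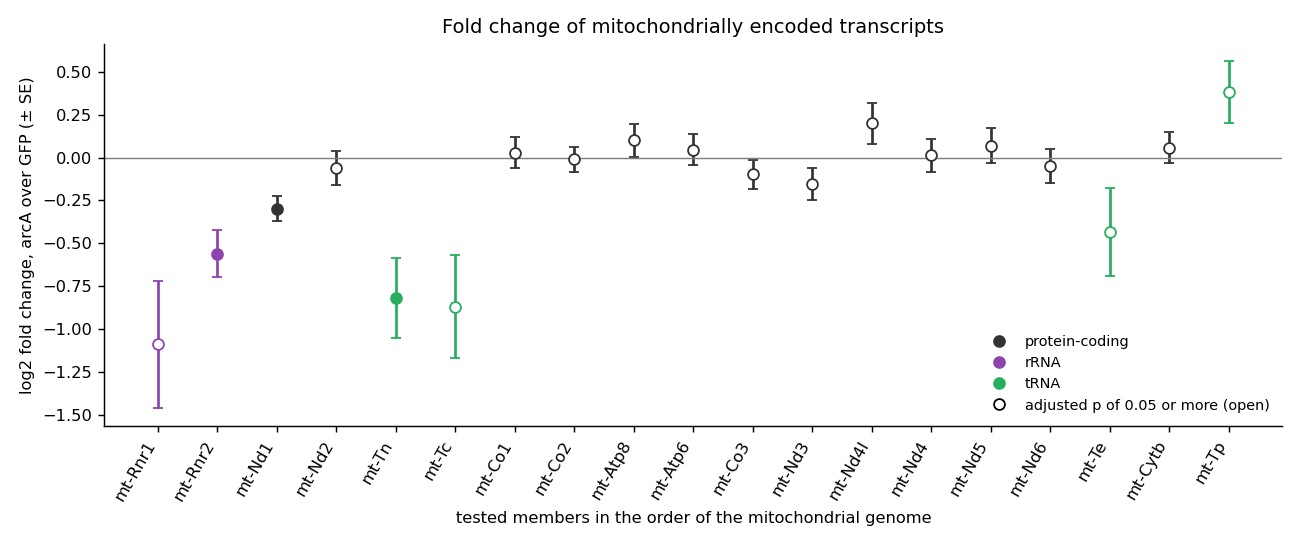
Log2 fold change, arcA over GFP, with its standard error (y axis) for the tested mitochondrial genes in the order in which they lie on the mitochondrial genome (x axis), with filled points for an adjusted p under 0.05. mt-Rnr1, mt-Rnr2 and mt-Nd1 lie at -1.09, -0.56 and -0.30, the other 12 mRNAs lie between -0.15 and 0.20, and the 4 tRNAs (green) spread between -0.87 and 0.38.

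Complex III and complex IV hold the most abundant mitochondrial mRNAs of these livers, and neither passed the test. mt-Cytb encodes the cytochrome b of complex III (chrM:14145-15288, plus strand). Its lowest, median and highest values were 9098, 11109 and 12294 CPM in arcA livers, against 8168, 10518 and 12938 CPM in GFP livers (log2 fold change 0.06, SE 0.0889, adjusted p = 0.755, edgeR). mt-Co1, the catalytic subunit of cytochrome c oxidase (chrM:5328-6872, plus strand), ranged between 18162 and 25974 CPM around a median of 23423 CPM in arcA livers, and between 18188 and 26763 CPM around a median of 22337 CPM in GFP livers (0.03, SE 0.0886, adjusted p = 0.886). The groups overlapped over nearly their whole ranges for both genes, with the higher median in arcA livers.

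The other subunits of complex IV and those of complex V did not pass either. mt-Co2, the subunit that takes electrons from cytochrome c, averaged 372 ± 23.3 CPM in arcA livers and 374 ± 50.3 CPM in GFP livers (log2 fold change -0.0099, SE 0.0741, adjusted p = 0.954, edgeR). mt-Co3, a further core subunit of complex IV, averaged 378 ± 23.2 CPM in arcA livers and 404 ± 65.4 CPM in GFP livers (-0.10, SE 0.0822, adjusted p = 0.507). mt-Atp6, the subunit at the proton channel of the ATP synthase, averaged 411 ± 46.5 CPM in arcA livers and 398 ± 56.0 CPM in GFP livers (0.05, SE 0.0883, adjusted p = 0.807). The groups overlapped for all of these genes. mt-Atp8, whose reading frame runs into that of mt-Atp6, averaged 90.1 ± 14.1 CPM in arcA livers and 84.0 ± 11.4 CPM in GFP livers (0.10, SE 0.0966, adjusted p = 0.576). Over the 12 mRNAs other than mt-Nd1, 7 fold changes were above 0 and 5 below, and their standard errors lay between 0.0741 and 0.117 on the log2 scale, which limits what size of difference could be seen.

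Reads of some of these genes cannot be assigned to 1 gene, because neighbours overlap. The 2 longest overlaps between reading frames of the same strand are shown here from the GENCODE M21 transcripts (GRCm38, plus strand), with the bases that belong to both genes in capitals. The first lies at chrM:7917-7979 and shares 43 bases, the other at chrM:10152-10188 and shares 7 bases.
mt-Atp8/mt-Atp6 overlap: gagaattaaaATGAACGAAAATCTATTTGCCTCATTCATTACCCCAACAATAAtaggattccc
mt-Nd4l/mt-Nd4 overlap: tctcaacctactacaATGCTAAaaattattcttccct

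The nuclear genome also holds old insertions of mitochondrial DNA, which are annotated as pseudogenes, and 7 of the 13 mRNAs matched an annotated nuclear transcript at 99% identity or more over at least 31.3% of their length. mt-Atp8 matched an annotated copy over its 43 overlap bases alone. Nuclear sequence outside annotated transcripts was not searched, such as that between the chromosome 1 copies of mt-Co2 and mt-Atp6. A run of such copies lies on the minus strand of chromosome 1 between 24611535 and 24616197 (GRCm38). The first 60 bases of mt-Co2 (chrM:7013-7072, plus strand) are shown beside its identical copy Gm28661 (chr1:24615506-24615565, minus strand) and the more diverged copy Gm13341 (chr2:22587903-22587962, minus strand), with bases that differ from mt-Co2 in capitals.
mt-Co2: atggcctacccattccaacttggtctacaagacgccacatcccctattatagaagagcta
Gm28661: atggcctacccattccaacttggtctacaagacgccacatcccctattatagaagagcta
Gm13341: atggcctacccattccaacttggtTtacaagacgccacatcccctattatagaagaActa

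The copies differed widely in how many counts they held beside their gene. Gm28661 matched 681 of the 684 bases of mt-Co2 without a mismatch, and its counts were 0.992 to 1.07 times those of mt-Co2 in arcA livers and 1.0 to 1.13 times in GFP livers. Gm10925, a full match to mt-Atp6 over 678 bases, held 1.23 to 1.53 times its counts in arcA livers and 1.31 to 1.5 times in GFP livers. Gm28438, at 99.7% identity to mt-Nd3, held 1.26 to 2.12 times its counts in arcA livers and 1.59 to 2.07 times in GFP livers. Gm10222, identical to mt-Nd4l over 294 of its 297 bases, held 0.446 to 0.532 times its counts in arcA livers and 0.450 to 0.610 times in GFP livers. Gm28439, identical to mt-Nd4 over 63.6% of its length, held 0.0422 to 0.0547 times its counts in arcA livers and 0.0405 to 0.0476 times in GFP livers. mt-Nd1, mt-Rnr1 and mt-Rnr2 had no annotated nuclear transcript of the same orientation in the count table at 90% identity or more. Matches in the opposite orientation were not kept for any gene. The sources used here do not say how reads that match several places were counted. The levels of the genes with near-identical copies are therefore uncertain.

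The levels per length differed between mRNAs with a copy over most of their length and mRNAs without one. The 5 mRNAs with a near-identical copy over at least 90% of their length (mt-Co2, mt-Atp6, mt-Co3, mt-Nd3 and mt-Nd4l) lay between 156 and 603 CPM per kilobase of gene in arcA livers and between 174 and 584 in GFP livers. The 5 without an annotated one (mt-Nd1, mt-Nd2, mt-Nd5, mt-Nd6 and mt-Cytb) lay between 2525 and 9596 CPM per kilobase in arcA livers and between 2614 and 9221 in GFP livers. mt-Atp8, which shares its 43 overlap bases with an annotated copy and was not compared with unannotated sequence, was at 441 in arcA livers and 412 in GFP livers. mt-Nd4 and mt-Co1, with a near-identical copy over 63.6% and 31.3% of their length, were in neither set. mt-Nd4 was at 3510 in arcA livers and 3480 in GFP livers, above mt-Nd5 and mt-Nd6, and mt-Co1 was the highest of all. The order of levels per kilobase began with mt-Co1 at 14890 in arcA livers and 14589 in GFP livers, followed by mt-Cytb at 9596 in arcA livers and 9221 in GFP livers. mt-Nd1 stood just above mt-Nd2 in arcA livers, at 6773 ± 559 and 6451 ± 564, which differ by less than their SDs, and further above it in GFP livers, at 8334 ± 715 and 6732 ± 1252.

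**Figure D4:**
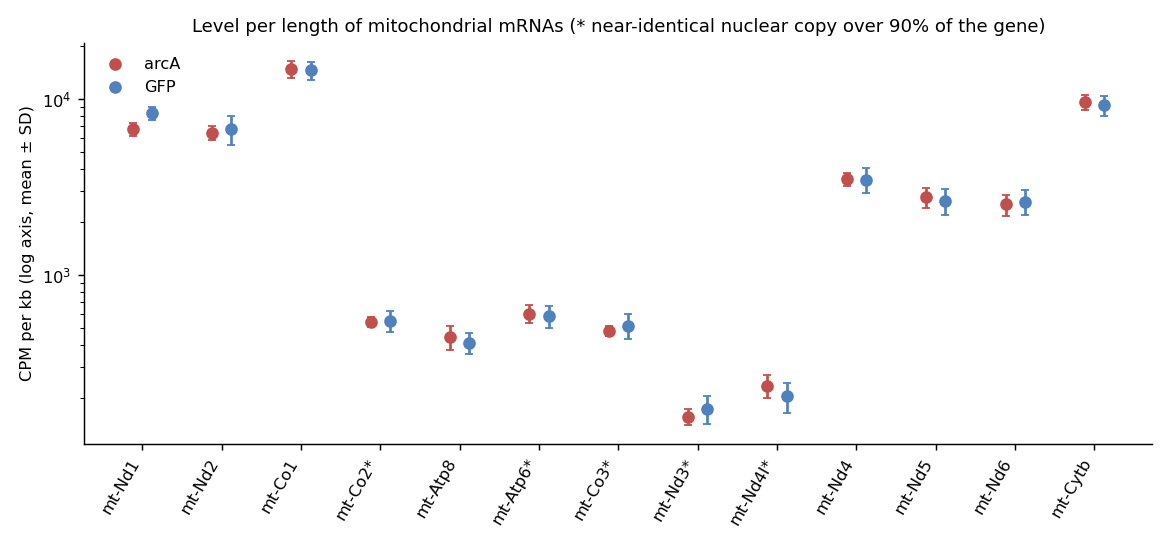
Mean level in CPM per kilobase of gene (log axis) with SD for each mitochondrial mRNA in genome order, arcA left of GFP (n = 8 each). The genes with a near-identical nuclear copy over most of their length (asterisks) lie between 156 and 603 in arcA livers and between 174 and 584 in GFP livers, below 5 mRNAs without an annotated one at 2525 and more in arcA livers and 2614 and more in GFP livers.

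Adding each near-identical copy's counts to its gene, an alternative chosen after the data were seen, left the same 3 mitochondrial genes called. mt-Nd3 moved most, to 141 ± 13.6 CPM in arcA livers and 167 ± 24.4 CPM in GFP livers (log2 fold change -0.24, SE 0.0823, adjusted p = 0.0615, edgeR). Its copy Gm28438 passed the test by itself, at 86.9 ± 11.5 CPM in arcA livers and 107 ± 14.0 CPM in GFP livers (-0.30, SE 0.0879, adjusted p = 0.0346). Since mt-Nd3 and this copy are nearly identical, their counts cannot be told apart.

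The 22 tRNAs lie between the other genes and punctuate the precursors, 14 of them on the plus strand and 8 on the minus strand. The 4 with the most counts were mt-Tp, mt-Tc, mt-Tn and mt-Te, all on the minus strand, where mt-Nd6 is the only annotated gene that is not a tRNA. They are shown whole, 5′ to 3′, from the GENCODE M21 transcripts (GRCm38, minus strand), with the anticodon in capitals. They lie at chrM:15356-15422 (mt-Tp, for proline), chrM:5192-5257 (mt-Tc, for cysteine), chrM:5089-5159 (mt-Tn, for asparagine) and chrM:14071-14139 (mt-Te, for glutamate).
mt-Tp: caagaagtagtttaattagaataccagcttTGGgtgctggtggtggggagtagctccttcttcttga
mt-Tc: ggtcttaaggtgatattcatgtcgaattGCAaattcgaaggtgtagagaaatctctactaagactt
mt-Tn: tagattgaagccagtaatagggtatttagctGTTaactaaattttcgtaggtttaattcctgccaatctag
mt-Te: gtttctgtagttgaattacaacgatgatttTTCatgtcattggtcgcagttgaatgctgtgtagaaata

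The minus-strand tRNAs summed to 36082 counts over all 16 libraries and the plus-strand tRNAs to 143 counts. mt-Tp alone held 93.5% of all tRNA counts. The 18 tRNAs outside the leading 4 had between 0 and 76 counts over all libraries, with at most 10 in any library, and none of them was tested. mt-Td, for aspartate, had 0 counts in every library, which allows a share of up to 4.69e-07% of 639290155 counts (a floor of 3 counts, for counting error only). Mature tRNAs are short and carry no long poly(A) tail, so oligo-dT libraries do not measure their pool.

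mt-Tn was the tRNA that fell. Its lowest, median and highest values were 0.670, 0.941 and 1.09 CPM in arcA livers, against 0.992, 1.35 and 3.63 CPM in GFP livers, or 30 to 42 counts per arcA library and 37 to 91 per GFP library. All 8 arcA livers lay below the GFP median, the groups overlapped at the low end of GFP, and GFP replicate 3 stood alone at the top. The log2 fold change was -0.82 (SE 0.234, adjusted p = 0.0285, edgeR). It was -0.56 without GFP replicates 2, 3 and 5 (adjusted p = 0.0886), -0.75 without arcA replicates 3 and 8 (adjusted p = 0.0700) and -0.55 with limma voom (adjusted p = 0.0711), and the call was lost in all 3.

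mt-Tc, next to mt-Tn on the same strand, ranged between 0.665 and 2.01 CPM around a median of 1.07 CPM in arcA livers, and between 1.14 and 5.31 CPM around a median of 1.65 CPM in GFP livers. GFP replicate 3 was again the highest library, and 7 of 8 arcA livers lay below the GFP median (log2 fold change -0.87, SE 0.301, adjusted p = 0.0707, edgeR). DESeq2 called it (adjusted p = 0.0243), and so did edgeR without arcA replicate 4 (adjusted p = 0.0298) and when scaled on hepatocyte markers (adjusted p = 0.0170). mt-Te averaged 0.384 ± 0.0773 CPM in arcA livers and 0.533 ± 0.233 CPM in GFP livers, on 11 to 19 counts per arcA library and 15 to 26 per GFP library (-0.44, SE 0.256, adjusted p = 0.313).

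mt-Tp lay on the other side. It ranged between 46.3 and 79.3 CPM around a median of 59.1 CPM in arcA livers, and between 28.2 and 78.0 CPM around a median of 47.1 CPM in GFP livers. 7 of 8 arcA livers lay above the GFP median, while GFP replicate 3 at 78.0 CPM was among the highest of all libraries. The log2 fold change was 0.38 (SE 0.181, adjusted p = 0.208, edgeR), and without GFP replicate 3 it was 0.51 (adjusted p = 0.0391).

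A mitochondrial mRNA from each of complexes I, III, IV and V was next set against a nuclear-encoded partner of the same complex, within each library. For complex I this was mt-Nd1, the mRNA already called above. The ratio of mt-Nd1 to Ndufs1, a nuclear-encoded subunit of complex I, was 60.3 ± 7.54 in arcA livers and 75.5 ± 7.66 in GFP livers (SD, n = 8 each; log2 difference -0.33, two-sided exact permutation test, p = 0.00171, adjusted p = 0.0103 over 6 ratios). All 8 arcA livers lay below the GFP median, and the groups overlapped through arcA replicates 3 and 8. Ndufs1 by itself was not called, at 0.03 on the log2 scale, beside -0.30 for mt-Nd1. The ratio therefore mostly repeats the lower mt-Nd1 and is not a separate result for complex I. The other complex I mRNAs lay between -0.15 and 0.20 with none called, and their ratios to nuclear-encoded partners were not tested. The ratio of mt-Cytb to Uqcrc2, in complex III, was 45.4 ± 5.88 in arcA livers and 43.0 ± 5.24 in GFP livers (0.08, exact permutation test, adjusted p = 0.600). The ratio of mt-Co1 to Cox4i1, in complex IV, was 63.3 ± 9.18 in arcA livers and 60.4 ± 8.90 in GFP livers (0.07, adjusted p = 0.655 by the same exact test). The ratio of mt-Atp6 to Atp5a1, in complex V, was 0.361 ± 0.0470 in arcA livers and 0.366 ± 0.0514 in GFP livers (-0.02, adjusted p = 0.856 by the same exact test).

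**Figure D5:**
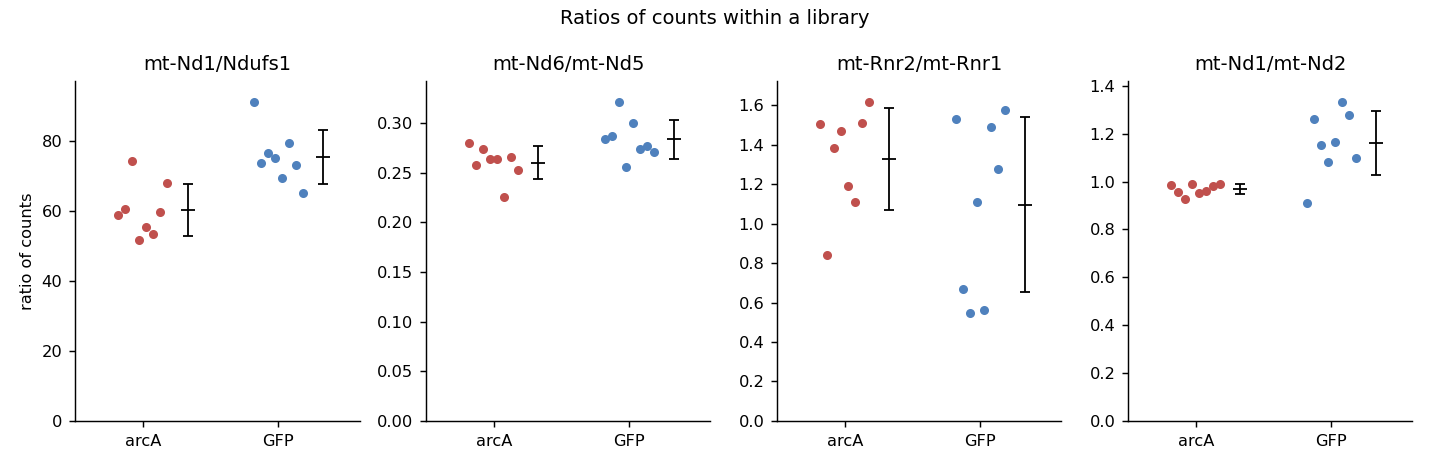
Ratios of counts of 2 genes within a library, 1 point per library, arcA on the left and GFP on the right of each panel, with mean and SD (n = 8 each). mt-Nd1 to Ndufs1 averages 60.3 in arcA livers and 75.5 in GFP livers, while mt-Rnr2 to mt-Rnr1 averages 1.33 in arcA livers and 1.10 in GFP livers, a direction that turns without GFP replicates 2, 3 and 5.

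No nuclear-encoded subunit of complexes I to V passed the test: 0 of 77 were called by edgeR, against 10.8% of all tested genes, with 1 at an unadjusted p under 0.05 (3608 of all 14476 genes), 0 called by DESeq2 and 1, Cox5a, called higher by limma voom. Their median log2 fold change was -0.001. By complex the median was 0.02 over 36 genes of complex I, 0.03 over 4 of complex II, -0.01 over 9 of complex III, -0.05 over 12 of complex IV and 0.01 over 16 of complex V. Scaling libraries on hepatocyte markers moved the median of all genes to -0.18, and 34 of the 77 were then called lower, beside 3303 of all 14476 genes lower and 69 higher in the same fit.

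The nuclear-encoded factors that maintain and express mitochondrial DNA held few calls. Over all tested genes, 10.8% were called, 4.27% higher and 6.57% lower. Of 27 tested genes of mitochondrial DNA maintenance and transcription 1 passed, Twnk, the replicative helicase, at 22.0 ± 1.66 CPM in arcA livers and 18.8 ± 2.22 CPM in GFP livers (log2 fold change 0.23, SE 0.0689, adjusted p = 0.0374, edgeR). Of 34 genes of tRNA modification and charging 1 passed, Cars2, the mitochondrial cysteinyl-tRNA synthetase, at 9.71 ± 0.567 CPM in arcA livers and 8.36 ± 0.618 CPM in GFP livers (0.22, SE 0.0624, adjusted p = 0.0284). Of 18 genes of rRNA maturation 1 passed, Trub2, a pseudouridine synthase, at 9.27 ± 1.10 CPM in arcA livers and 11.7 ± 2.08 CPM in GFP livers (-0.33, SE 0.101, adjusted p = 0.0391). Of 16 chaperones and proteases 1 passed, Oma1, a protease of the inner membrane, at 17.8 ± 1.10 CPM in arcA livers and 15.7 ± 0.334 CPM in GFP livers, with no overlap between groups (0.18, SE 0.0465, adjusted p = 0.0170). Groups did not overlap for 1.76% of all tested genes in either direction. With libraries scaled by total counts alone none of these 4 passed, with adjusted p between 0.0636 and 0.287, and likewise when scaled on the mitochondrial mRNAs, with adjusted p between 0.175 and 0.347. Without GFP replicates 2, 3 and 5, Trub2 (adjusted p = 0.0554) and Oma1 (adjusted p = 0.10) did not pass, and with 1 library left out Twnk was called in 5 of 16 cases, Cars2 in 11, Trub2 in 8 and Oma1 in 16. Over all 32 alternatives, Twnk was called in 14, Cars2 in 21, Trub2 in 20 and Oma1 in 27.

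The remaining lists held 0 calls by edgeR. At an unadjusted p under 0.05 stood 3608 of all 14476 genes. None of 76 tested proteins of the mitochondrial ribosome passed (6 at that unadjusted p, 1 called lower by DESeq2 and 1 called higher by limma voom), and their median log2 fold change was -0.01. None of 22 genes of RNA processing and stability passed (2 at that unadjusted p, 0 by DESeq2 and by limma voom), with a median of 0.06. Medians were 0.03 over the maintenance and transcription genes, 0.03 over the tRNA genes, 0.07 over the rRNA maturation genes and 0.04 over the chaperones and proteases. Lrpprc and Slirp, the pair that stabilises mitochondrial mRNAs, had log2 fold changes of 0.02 (SE 0.0509, adjusted p = 0.881) and -0.07 (SE 0.122, adjusted p = 0.783). Polrmt, the mitochondrial RNA polymerase, was at 0.04 (SE 0.0571, adjusted p = 0.737), and Tfam, which packages mitochondrial DNA and starts its transcription, at -0.0038 (SE 0.0565, adjusted p = 0.978). Ppargc1a, a coactivator of mitochondrial biogenesis, was at 0.16 (SE 0.167, adjusted p = 0.608).

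Markers of other cell types differed between the groups beside these results. Over all tested genes, 6.57% were called lower and 4.27% higher. All 11 tested T and NK cell markers were lower in arcA livers, where the list of 14 summed to between 1.01 and 4.15 CPM, against 11.8 to 27.7 CPM in GFP livers. All 5 tested B and plasma cell markers were lower as well, with a summed level between 2.37 and 4.01 CPM over 8 markers in arcA livers and between 53.6 and 305 CPM in GFP livers. Markers this low in arcA livers could pass the filter through the GFP livers alone, which favours calls in this direction. With no filter, 13 of 14 T and NK and 6 of 8 B and plasma cell markers were lower, beside 1019 of 26533 genes. At 1 CPM in at least 8 libraries, 3 T and NK and 3 B and plasma cell markers were tested. Of 12 macrophage markers 6 were lower, with sums of 88.4 to 305 CPM in arcA livers and 203 to 348 CPM in GFP livers. Of 8 stellate cell markers 6 were lower (175 to 260 CPM in arcA livers, 273 to 352 CPM in GFP livers), and of 8 sinusoidal endothelial markers 1 was lower (77.3 to 117 CPM in arcA livers, 87.4 to 140 CPM in GFP livers). The calls came to 3 macrophage and 4 stellate cell markers without GFP replicates 2, 3 and 5, beside 818 of 14853 genes called lower. Without arcA replicates 3 and 8, 11 macrophage and 5 stellate cell markers were called, beside 1100 of 14703 genes called lower. With limma voom and DESeq2, 11 and 9 macrophage markers were called, beside 1147 and 1255 of 14476 genes called lower. Of 13 hepatocyte markers 2 were higher, against 5 with DESeq2, with limma voom and without arcA replicates 3 and 8, the last pair of fits with 1 marker, Apoa1, lower. Over all genes, DESeq2 called 780 higher, limma voom 832 and the fit without these arcA libraries 527. No marker of these lists was at 0 in all arcA livers or in all GFP livers. The part of these cell types in the values of mt-Nd1, mt-Rnr2 and mt-Tn was not tested.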

How the data were processed

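The deposited table holds raw counts per gene symbol made by the authors, in 16 columns of libraries. The tools named are bcl2fastq, STAR 2.5.1a, Subread and featureCounts 1.4.6-p5, with the build GRCm38, per the submitters' processing notes. Per the labels' protocols, Trizol total RNA of liver and oligo-dT were used. The sources used here give neither the annotation release nor the strand setting, the multi-mapping rule or the handling of read mates. Of counts between 1 and 20, 69.8% were even.

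Of 40757 lines, 348 exact copies were removed, leaving 40409. 0 library columns were left unused. Groups were taken from the sample titles. Library pairs within a group differed by a chi-square of 20.0 to 507 per gene over 56 pairs, so no library was a repeat of another. The labels do not say that each library is a separate mouse, so p-values measure the spread between libraries.

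Genes were filtered with filterByExpr and scaled by TMM, and 14476 were fitted with edgeR 4.0.16 in R 4.3.3 (robust quasi-likelihood test, group term only, Benjamini-Hochberg adjusted p under 0.05). All CPM are TMM-scaled, and standard errors are the absolute log2 fold change over the square root of F. DESeq2 1.42.0 and limma 3.58.1 (voom with quality weights) were alternatives, with other scalings and filters, a replicate block and libraries left out. Ratios were tested with exact permutation tests in Python 3.11.15. Nuclear copies were found by blastn 2.17.0 against GENCODE M21 transcripts, which also gave the printed sequences. The fit was tested on simulated data. Named were every mitochondrial mRNA and rRNA, the 4 tRNAs with the most counts and any past the threshold, up to 4 called genes of each nuclear list, and fixed regulators and ratio partners. The members and lists were chosen with earlier results of these data known. Same-numbered arcA and GFP libraries did not deviate together in log2 CPM (prior count 2), so the numbers were not used to pair them.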

Additional observations from a re-analysis of the deposited data

Results flagged for a closer look

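In 7 values 1 library stood far from the others of its group of 8, by a gap that exceeds Dixon's 95% critical value for 8 samples. Chance alone picks out about 1 in 20 groups in this way. In arcA livers, replicate 2 was highest for mt-Rnr1 at 2792 CPM and for the rRNA share at 0.489% of counts, and replicate 4 was highest for mt-Tc at 2.01 CPM. In GFP livers, replicate 1 was highest for mt-Nd2 at 9901 CPM. GFP replicate 3 was highest for mt-Tn at 3.63 CPM, for mt-Tc at 5.31 CPM and for mt-Tp at 78.0 CPM, and this library had the fewest counts of all, at 28912563.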

How the results depend on the processing

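The number of mitochondrial genes called was 3 as reported, and 7 when scaled on hepatocyte markers (mt-Rnr1, mt-Tc, mt-Co3 and mt-Nd3 added). The number was 5 with DESeq2 (mt-Rnr1 and mt-Tc added) and 1 (mt-Nd1) without GFP replicates 2, 3 and 5. Over all genes, 618 were called higher and 951 lower as reported, 69 and 3303 when scaled on hepatocyte markers, 780 and 1255 with DESeq2, and 369 and 818 without the 3 GFP libraries. It was 3 to 4 with 1 library left out. Nuclear respiratory chain subunits called were 0 as reported, 34 when scaled on hepatocyte markers, 1 with limma voom, 3 without arcA replicates 3 and 8, and 0 to 2 with 1 library left out. arcA replicate 3 had the highest macrophage marker sum of its group (305 CPM) and arcA replicate 8 the lowest hepatocyte marker sum (86427 CPM). The log2 ratios of mean shares moved by less than 1 pooled SD between libraries in every alternative run for them. This SD is wider than the error of a group difference. Over these alternatives the log2 ratio of the rRNA shares still ran between -1.02 and -0.45.

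mt-Nd1 and mt-Rnr2 stayed called with any 1 library left out (log2 fold changes -0.33 to -0.27 and -0.64 to -0.49), and so did mt-Tn (-0.90 to -0.56, with -0.56 reached without GFP replicate 3). mt-Rnr1 ran between -1.28 and -0.87.

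Log2 fold changes near 0 turned in sign as follows, and the cause was not tested. With upper-quartile scaling, mt-Nd4 was -0.0047 and Lrpprc -0.00073. With library size alone, mt-Nd4 was -0.011 and Lrpprc -0.0082. Scaled on the mitochondrial mRNAs, mt-Co2 was 0.0083. With a filter of 1 CPM, mt-Nd4 was -0.0099 and Lrpprc -0.0054. With counts halved, mt-Nd4 was -0.0048 and Lrpprc -0.00022. With limma voom, mt-Co2 was 0.016 and Uqcrc2 0.016. Scaled on hepatocyte markers, which moved the median of all genes to -0.18, mt-Co1 was -0.16, mt-Atp8 -0.089, mt-Atp6 -0.14, mt-Nd4 -0.18, mt-Nd5 -0.11, mt-Cytb -0.13, Oma1 -0.0081, Lrpprc -0.17, Polrmt -0.15, Ppargc1a -0.011, Ndufs1 -0.16 and Atp5a1 -0.12. Without GFP replicates 2, 3 and 5, mt-Co1 was -0.022, mt-Co2 0.015, mt-Nd4 -0.027, mt-Nd5 -0.019, Lrpprc -0.025, Slirp 0.13 and Polrmt -0.015, and the log2 differences of the ratios were -0.090 for mt-Rnr2 to mt-Rnr1, -0.0045 for mt-Co1 to Cox4i1 and 0.035 for mt-Atp6 to Atp5a1. Without arcA replicates 3 and 8, mt-Nd4 was -0.0053, Uqcrc2 0.048, Cox4i1 0.013 and the ratio of mt-Cytb to Uqcrc2 -0.0058.

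With 1 library left out, ranges that crossed 0 were -0.10 to 0.027 for mt-Nd2, -0.0099 to 0.073 for mt-Co1, -0.050 to 0.039 for mt-Co2, -0.0018 to 0.093 for mt-Atp6, -0.040 to 0.069 for mt-Nd4, -0.0079 to 0.040 for Lrpprc, -0.12 to 0.044 for Slirp, -0.038 to 0.020 for Tfam, -0.039 to 0.018 for Uqcrc2, -0.051 to 0.016 for Cox4i1, -0.067 to 0.034 for mt-Atp6 to Atp5a1, and -0.086 to 0.018 for the log2 ratio of mean protein-coding shares, which was above 0 without GFP replicate 1. The ratio of mt-Nd6 to mt-Nd5 ran between -0.14 and -0.094 and passed the threshold in 3 of 16.

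Same-numbered libraries correlated between -0.0487 and 0.159 in their deviations from the group means, 2 of 8 pairs exceeded 0.1, and 1 arcA library correlated best with its own number. With the replicate number as a block, the same 3 mitochondrial genes were called, with 592 genes higher and 876 lower over all genes, against 618 and 951 without it. The ratio of mt-Nd1 to Ndufs1 had a log2 difference of -0.33 under the block, with an adjusted p of 0.0703 (exact permutation within pairs), which misses the threshold, and Cars2 missed it there too (adjusted p = 0.0710).

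Genes with under 100 counts per library, such as mt-Tn and mt-Te, carry the widest counting error, and 18 tRNAs were too low to be tested. Because some mRNAs share sequence with nuclear copies, their levels depend on an unstated counting rule.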
